A study of Homo sapiens with 4 samples.

Results

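The 8 genes described here encode 6 facilitative glucose transporters of the SLC2A (GLUT) family, SLC2A1, SLC2A3, SLC2A6, SLC2A8, SLC2A10 and SLC2A12, and a pair of alpha-arrestins that curb glucose uptake, TXNIP and ARRDC4. They are 8 of the 18417 genes with a probe set of their own on the array. They are defined by name, with no measured value in the rule, but were proposed with results of these data known. Each is represented by the probe set that carries its symbol alone, and all 8 had exactly 1 such probe set and 0 shared ones. The question asked of them was how their transcripts differed between MiaPaCa2 cells given LY101-4B and cells given vehicle.

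LY101-4B is presented by the series as an inhibitor of E2F, the transcription factor family that drives entry into S phase. MiaPaCa2 is an established line from a human pancreatic carcinoma, obtained by the submitters from a cell bank and kept in DMEM with fetal calf serum; the glucose content of the medium is not given in the sources used here. The LY101-4B group held 2 samples treated at 50 µM for 24 h and the vehicle group held 2 samples treated with vehicle for 24 h, called biological replicates in the design text. A treatment protocol attached to the same samples names LY101-4D at 25 µM instead; titles, agent labels and the series design give LY101-4B at 50 µM and were followed. All 4 arrays come from this 1 cell line.

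Facilitative glucose transporters carry hexoses across membranes down their gradient, and SLC2A1 and SLC2A3 (GLUT1 and GLUT3) provide the basal, high-affinity uptake of many tumour cells. TXNIP and ARRDC4 belong to the alpha-arrestins, adaptor proteins that bring ubiquitin ligases to membrane proteins. TXNIP lowers glucose uptake by acting on SLC2A1 at the plasma membrane and also binds thioredoxin, and ARRDC4 likewise lowers uptake. Both genes are classical targets of the glucose-sensing factors MondoA (encoded by MLXIP) and MLX, which are drawn to promoters by paired E-box-like sequences when glucose 6-phosphate is plentiful.

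Promoter windows of RefSeq (GRCh38.p14), 250 bases before to 50 bases after the gene start, were found for 7 of the 8 genes, SLC2A3 being the exception; of 2 windows for TXNIP the one at the RefSeq gene start was used. The windows of both alpha-arrestins are shown because TXNIP was called and ARRDC4 was not, and those of SLC2A10 and SLC2A12 because these are transporters whose transcripts lay higher and lower by about the same amount. Each sequence is written 5′ to 3′ in the direction of the gene and covers the RefSeq start, and capitals mark every match to the searched motifs.
TXNIP, chr1:145996530-145996829, minus strand: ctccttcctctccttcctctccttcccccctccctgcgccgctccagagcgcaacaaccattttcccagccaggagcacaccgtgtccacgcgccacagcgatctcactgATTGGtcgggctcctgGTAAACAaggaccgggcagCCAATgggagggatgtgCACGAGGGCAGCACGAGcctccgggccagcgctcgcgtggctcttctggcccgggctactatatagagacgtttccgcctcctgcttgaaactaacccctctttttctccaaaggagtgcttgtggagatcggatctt
ARRDC4, chr15:97960453-97960752, plus strand: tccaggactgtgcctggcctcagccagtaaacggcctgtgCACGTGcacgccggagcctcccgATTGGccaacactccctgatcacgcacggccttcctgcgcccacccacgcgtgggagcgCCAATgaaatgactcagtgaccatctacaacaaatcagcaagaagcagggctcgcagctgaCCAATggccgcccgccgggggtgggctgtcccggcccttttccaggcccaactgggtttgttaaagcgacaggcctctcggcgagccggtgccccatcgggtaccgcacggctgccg
SLC2A10, chr20:46709399-46709698, plus strand: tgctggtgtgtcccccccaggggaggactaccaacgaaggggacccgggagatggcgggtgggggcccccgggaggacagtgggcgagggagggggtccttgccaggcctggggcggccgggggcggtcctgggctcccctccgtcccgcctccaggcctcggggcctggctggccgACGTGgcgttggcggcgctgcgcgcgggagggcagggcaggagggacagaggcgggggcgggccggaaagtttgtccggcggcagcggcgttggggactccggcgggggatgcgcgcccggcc
SLC2A12, chr6:134052575-134052874, minus strand: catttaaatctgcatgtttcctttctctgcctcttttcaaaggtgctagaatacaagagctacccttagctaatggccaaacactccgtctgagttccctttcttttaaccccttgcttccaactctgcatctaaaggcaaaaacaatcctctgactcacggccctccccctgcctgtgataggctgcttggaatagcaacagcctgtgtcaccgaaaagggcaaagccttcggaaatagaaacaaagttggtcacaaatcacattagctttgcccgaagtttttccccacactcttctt

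The motifs searched on both strands were CACGTG, the palindromic E-box; ACGTG, the core of hypoxia response elements, which every CACGTG also holds; TGATGNAA, the form read by ATF4 with CHOP or C/EBP proteins; GTAAACA, read by FOXO and other forkhead factors; and CCAAT, read by NF-Y. Among 35116 RefSeq windows of this length, 7.26% held CACGTG, 21.41% ACGTG, 3.62% TGATGNAA, 3.42% GTAAACA and 34.61% CCAAT. The ARRDC4 window held CACGTG from base -210 and 3 matches to CCAAT. The TXNIP window held GTAAACA from base -124 and 2 matches to CCAAT, but no CACGTG. It held a pair of E-box-like sequences from base -88, matching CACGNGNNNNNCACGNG, a motif searched only after the sequence had been seen and held by 20 of the 35116 windows. The only match in the SLC2A10 window was ACGTG from base -73, and the SLC2A12 window matched none of these motifs. G and C made up 60.3% of the TXNIP window, 65.0% of that of ARRDC4, 78.0% of that of SLC2A10 and 45.7% of that of SLC2A12, against a median of 58.7% over all windows. Of the other transporters, SLC2A1 had 1 match to CCAAT, SLC2A6 had 2 and SLC2A8 had 3, with none of the other motifs. A match is a description of letters and not a site of binding.

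Values are log2 RMA levels, so 1 log2 unit is a 2-fold step; RMA brings the arrays to nearly the same distribution, and array medians lay between 5.88 and 5.97. Across the 21214 annotated probe sets the LY101-4B arrays correlated at r = 0.994 and the vehicle arrays at r = 0.997, against 0.978 to 0.981 between groups. Of 6 markers of epithelial cells and carcinoma lines, 2 were called lower with LY101-4B and 0 higher. The keratin genes KRT8 (11.86 and 12.02 with LY101-4B, 12.76 and 12.79 with vehicle) and KRT18 (12.37 and 12.39 with LY101-4B, 13.00 and 12.88 with vehicle) differed by -0.84 and -0.57 log2 units (limma adjusted p 0.00371 and 0.0106). KRT19 had values of 9.06 to 9.28 and the vimentin gene VIM of 12.47 to 12.66, while those of EPCAM and CDH1, markers of epithelial cells, were 3.77 to 4.63, all below the array medians. Leukocyte and endothelial markers had values between 3.36 and 5.93, with 0 of 7 measured called. Of 5 fibroblast markers, COL1A2 lay higher (0.47), with values of 9.87 to 10.40, and COL3A1 lower (-0.54), with values of 6.09 to 6.85. COL1A1 had values of 6.88 to 7.02, and DCN and LUM of 2.95 to 3.62. The log2 values of this list summed to 30.2 and 30.3 on the LY101-4B arrays and to 29.8 and 30.4 on the vehicle arrays. In these sums the opposite differences of COL1A2 and COL3A1 offset each other. The part of all these markers in the results was not tested.

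With LY101-4B, TXNIP, SLC2A3, SLC2A10 and SLC2A6 rose, SLC2A12 fell, and SLC2A1, SLC2A8 and ARRDC4 did not pass the test. A probe set was called at a limma adjusted p under 0.05, adjusted over all 21214 tested probe sets, of which 19.6% were called, 9.10% higher and 10.5% lower. Of the 8 genes 4 were called higher and 1 lower. The groups did not overlap for 7 of the 8 genes, against 58.0% of all tested probe sets. The median difference of the 8 genes, LY101-4B minus vehicle, was 0.38 log2 units, beside 0.005 over all tested probe sets. The 8 genes were proposed with results of these data known, so these counts describe them and do not set them apart from other genes.

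**Figure D1:**
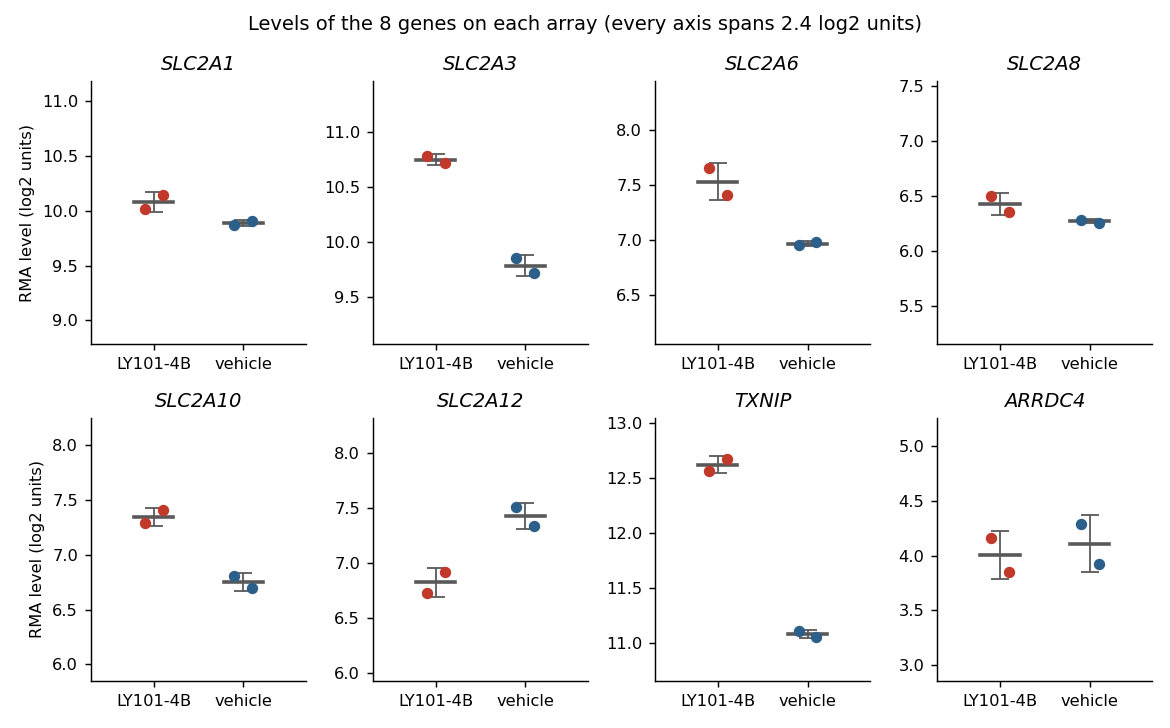
RMA level (log2 units) of each gene on each array, with 1 point per array, the LY101-4B arrays in red and the vehicle arrays in blue, a line at the group mean and bars of 1 SD (n = 2). Axes differ in position but span the same range; TXNIP and SLC2A3 show the widest gaps between groups, SLC2A12 is lower with LY101-4B, and only for ARRDC4 do the groups overlap.

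TXNIP, the thioredoxin-interacting protein gene, had levels of 12.57 and 12.68 log2 units on the LY101-4B arrays, against 11.10 and 11.05 on the vehicle arrays. Both LY101-4B arrays lay above both vehicle arrays, by at least 1.46 log2 units, and the arrays of a group lay close together. The group means were 12.62 ± 0.08 with LY101-4B and 11.08 ± 0.04 with vehicle (SD, n = 2 each). The rise was 1.55 ± 0.09 log2 units (SE), or 2.92-fold with a 95% interval of 2.50 to 3.41, at a limma adjusted p of 0.000729. Without any one array it ranged from 1.49 to 1.60 and stayed past the threshold. In RNA from whole cultures, more cells with the transcript and more transcript per cell cannot be told apart, here and for the genes below.

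ARRDC4, the other alpha-arrestin, had levels of 4.16 and 3.85 log2 units on the LY101-4B arrays and 4.29 and 3.93 on the vehicle arrays. The groups overlapped, and the arrays of each group lay further apart than those of any other of the 8 genes. Its mean was 4.01 ± 0.22 with LY101-4B and 4.11 ± 0.26 with vehicle (SD, n = 2 each). The difference was -0.10 ± 0.16 log2 units (SE; limma adjusted p 0.733), and its 95% interval ran from a ratio of 0.70 to 1.23. The sign turned to 0.05 without LY101-4B replicate 2 and to 0.08 without vehicle replicate 1. The mean over the 4 arrays stood at percentile 19.0 of all probe sets, and with no detection call at hand this probe set may or may not have been above background. The interval covers array spread only, and RMA compresses differences at such low values.

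The changes of TXNIP and ARRDC4 were also set against each other over the arrays with an exact 2-sided permutation test, but 2 arrays against 2 cannot give a p below 0.333, and the ARRDC4 probe set may be at the floor of the signal. No size is given for the difference between the 2 changes.

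SLC2A1, the ubiquitous basal transporter GLUT1, had levels of 10.01 and 10.15 log2 units on the LY101-4B arrays, against 9.87 and 9.91 on the vehicle arrays. The groups did not overlap, yet they stood only 0.11 log2 units apart. The difference of 0.19 ± 0.09 (SE) did not pass (limma adjusted p 0.224), and the 95% interval ran from a ratio of 0.97 to 1.34, which includes no change. Without any one array it ranged from 0.125 to 0.26.

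SLC2A3, the high-affinity transporter GLUT3 best known from neurons, had levels of 10.79 and 10.72 log2 units on the LY101-4B arrays, against 9.85 and 9.72 on the vehicle arrays. Both LY101-4B arrays lay at least 0.87 log2 units above both vehicle arrays. Its mean was 10.75 ± 0.05 with LY101-4B and 9.78 ± 0.09 with vehicle (SD, n = 2 each), a rise of 0.97 ± 0.09 log2 units (SE), or 1.96-fold with a 95% interval of 1.66 to 2.30 (limma adjusted p 0.00239). The call held without any one array, at adjusted p of 0.012 to 0.0184. SLC2A14, a close duplicate of SLC2A3 on the same chromosome, had 8.47 and 8.42 log2 units on the LY101-4B arrays against 8.01 and 7.81 on the vehicle arrays and rose 1.45-fold (adjusted p 0.0194). The transcripts are alike enough that probes for one gene could read the other, which was not tested, so the SLC2A14 value is uncertain and part of the SLC2A3 value could be shared. The SLC2A14 call was lost without LY101-4B replicate 1, vehicle replicate 1 or vehicle replicate 2 (adjusted p 0.0675, 0.0524 and 0.145).

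The other transporters belong to branches of the family that reside largely on internal membranes or have narrower tissue ranges. SLC2A6, which encodes the lysosome-associated GLUT6, had levels of 7.65 and 7.41 log2 units on the LY101-4B arrays, against 6.95 and 6.98 on the vehicle arrays. The LY101-4B arrays were both higher, though they differed from each other more than the vehicle arrays did. The rise was 0.57 ± 0.11 log2 units (SE), or 1.48-fold (limma adjusted p 0.0195), and the call was lost when either vehicle array was left out (adjusted p 0.112 and 0.0947) or with all rows tested (0.0662).

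SLC2A8, which encodes the endosomal and lysosomal transporter GLUT8, had levels of 6.50 and 6.35 log2 units on the LY101-4B arrays, against 6.28 and 6.26 on the vehicle arrays. The groups were 0.07 log2 units apart. The difference of 0.16 ± 0.09 (SE) did not pass (limma adjusted p 0.327), with a 95% interval from a ratio of 0.95 to 1.31, and it ranged from 0.08 to 0.23 without any one array.

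SLC2A10 encodes GLUT10, whose loss in humans causes arterial tortuosity syndrome. Its levels were 7.29 and 7.41 log2 units on the LY101-4B arrays, against 6.81 and 6.70 on the vehicle arrays. All LY101-4B values lay above all vehicle values, by at least 0.48. The rise was 0.60 ± 0.10 log2 units (SE), or 1.51-fold (limma adjusted p 0.0106). The call was lost when either vehicle array was left out (adjusted p 0.0528 and 0.0867).

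SLC2A12, which encodes GLUT12, a transporter first described in a breast cancer line, was the one transporter that fell. Its levels were 6.73 and 6.92 log2 units on the LY101-4B arrays, against 7.51 and 7.34 on the vehicle arrays. Both LY101-4B values were below both vehicle values, by at least 0.42. The difference was -0.60 ± 0.11 log2 units (SE), which is 1.52-fold lower (limma adjusted p 0.017). The call was lost without LY101-4B replicate 1, vehicle replicate 1 or vehicle replicate 2 (adjusted p 0.0575, 0.116 and 0.0522) and with all rows tested (0.0609), while the difference stayed between -0.70 and -0.51 without any one array. Fits on 3 arrays have less information on the spread, so a call can be lost there with the difference unchanged.

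**Figure D2:**
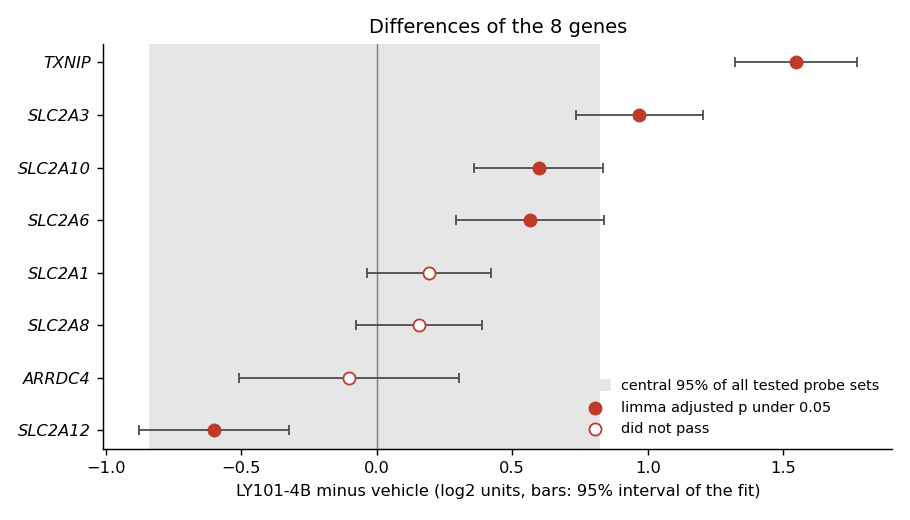
Difference LY101-4B minus vehicle (log2 units) of each gene with the 95% interval of the limma fit, filled where the adjusted p was under 0.05, over a grey band that holds the central 95% of differences of all tested probe sets (-0.84 to 0.82). TXNIP and SLC2A3 lie above the band, and the other 6 genes lie within it.

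Over all tested probe sets the central 95% of differences ran from -0.84 to 0.82 log2 units, so the differences of SLC2A6, SLC2A10 and SLC2A12, although called, were of a size that many probe sets on these arrays reached. The difference of SLC2A3 (0.97) and that of TXNIP (1.55) lay beyond that range.

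Lists of related genes, chosen with earlier results of these data known, were examined in the same fit. Of all tested probe sets, 9.10% were called higher and 10.5% lower. The list counts below describe the lists and do not set them apart from other genes. Of 8 other SLC2A genes, 2 rose and 0 fell (median difference 0.18): SLC2A14, given above, and SLC2A11, which encodes a fructose and glucose transporter and rose 1.30-fold at an adjusted p of 0.0469 by limma. The SLC2A11 call was lost without any one of the 4 arrays (adjusted p 0.0816 to 0.314) and under cyclic loess, median centring, all rows and the replicate block (adjusted p 0.0681, 0.0716, 0.113 and 0.0535). The other 6, among them the hepatic SLC2A2 and the insulin-responsive SLC2A4, had differences between -0.09 and 0.25 and did not pass. Of 6 genes for sodium-glucose cotransporters and SWEET1, 1 rose and 0 fell. This was SLC50A1, which encodes SWEET1, the human member of the SWEET sugar transporters. SLC50A1 had levels of 10.41 and 10.41 log2 units on the LY101-4B arrays, against 9.09 and 9.08 on the vehicle arrays. The arrays of a group were nearly identical, and the rise was 1.32 ± 0.08 log2 units (SE), or 2.51-fold (limma adjusted p 0.000865).

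Among the remaining arrestins, 1 of 4 measured genes rose and 1 fell, with a median difference of -0.01. ARRDC3, an alpha-arrestin known for steering adrenergic receptors and integrin beta4 to degradation, had levels of 10.49 and 10.63 log2 units on the LY101-4B arrays, against 8.81 and 8.89 on the vehicle arrays. It was higher on both LY101-4B arrays by at least 1.60, a rise of 1.71 ± 0.10 log2 units (SE), or 3.26-fold (limma adjusted p 0.000675). The alpha-arrestin genes ARRDC1 (-0.13) and ARRDC2 (0.11) did not pass. ARRB1, which encodes beta-arrestin 1, fell 1.33-fold (limma adjusted p 0.037), a call lost without LY101-4B replicate 1, vehicle replicate 1 or vehicle replicate 2 (adjusted p 0.0967, 0.239 and 0.141).

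Of the genes of the Mondo and MLX glucose sensors, 0 of 3 were called in either direction. Transcript levels do not measure the activity of these factors, and their part in the TXNIP rise was not tested. MLXIP, which encodes MondoA, had levels of 7.06 and 6.91 log2 units on the LY101-4B arrays, against 7.32 and 7.35 on the vehicle arrays, a difference of -0.35 ± 0.10 (SE; limma adjusted p 0.0533). MLX, the shared partner, had 8.22 and 8.25 on the LY101-4B arrays and 8.53 and 8.53 on the vehicle arrays, a difference of -0.30 ± 0.08 (adjusted p 0.0617). Both were lower on both LY101-4B arrays. MLXIP passed as lower with an intensity trend (adjusted p 0.0422), median centring (0.034), cyclic loess (0.0498) and the brighter 50% (0.0159). It did not pass with all rows (0.123), the robust prior (0.0556) or the replicate block (0.0617). MLX passed with an intensity trend (0.0284), median centring (0.0374) and the brighter 50% (0.017). It did not pass with cyclic loess (0.0926), all rows (0.13), the robust prior (0.0644) or the replicate block (0.0794). Without any one array the difference ranged from -0.428 to -0.277 for MLXIP and from -0.307 to -0.284 for MLX. MLXIPL, which encodes ChREBP, the liver and fat counterpart of MondoA, had a difference of -0.16 ± 0.10 (adjusted p 0.361), which ranged from -0.26 to -0.06 without any one array.

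Of the thioredoxin system, whose reduced thioredoxin TXNIP binds, 1 of 4 measured genes rose. TXNRD1, the cytosolic thioredoxin reductase, had levels of 12.12 and 12.16 log2 units on the LY101-4B arrays, against 11.40 and 11.46 on the vehicle arrays, and rose 1.64-fold (limma adjusted p 0.00442). Thioredoxin itself, TXN, had a difference of 0.14 and did not pass, nor did mitochondrial TXN2 (-0.23) and TXNRD2 (-0.20). These counts depended on the fit. With an intensity trend 2 genes of the list were called higher, and with the brighter 50% of probe sets 1 was called higher and 1 lower.

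AMPK phosphorylates TXNIP and marks it for loss, ITCH is the ubiquitin ligase of TXNIP, and retromer with SNX27 returns SLC2A1 to the cell surface. Of 15 measured genes of this list 4 rose and 1 fell, with a median difference of 0.03. The AMPK subunit gene PRKAB2 rose 1.56-fold (limma adjusted p 0.0183), PRKAA2 1.42-fold (adjusted p 0.0439) and ITCH 1.34-fold (adjusted p 0.0225), while PRKAG2 fell 1.31-fold (adjusted p 0.0287). PRKAG1, named after its value was seen, rose 1.26-fold (adjusted p 0.0453). Each of these calls was lost without at least 1 array. PRKAB2 missed the threshold without LY101-4B replicate 2 or vehicle replicate 1 (adjusted p 0.0594 and 0.113), ITCH without either vehicle array (0.151 and 0.158), and PRKAG1 without any one array (0.0697 to 0.293). PRKAA2 missed it without LY101-4B replicate 1, LY101-4B replicate 2 or vehicle replicate 1 (0.121, 0.107 and 0.243), and PRKAG2 without LY101-4B replicate 1 or any vehicle array (0.0702, 0.177 and 0.195). PRKAA2 also missed it under cyclic loess (0.0723) and median centring (0.06), and PRKAG1 under median centring (0.0702) and with the replicate block (0.0576). The retromer genes VPS35 (0.08), VPS26A (-0.06), VPS26B (-0.25) and VPS29 (0.03), with SNX27 (-0.24), did not pass.

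Among 9 transcription factor genes known to act on glucose transporter genes or on TXNIP, 3 rose and 0 fell. All 3 encode MiT/TFE factors, regulators of lysosomal and nutrient genes: MITF rose 1.59-fold (limma adjusted p 0.00982), TFE3 1.57-fold (adjusted p 0.00776) and TFEB 1.30-fold (adjusted p 0.0325). MITF had 5.24 and 5.42 log2 units on the LY101-4B arrays, against 4.72 and 4.60 on the vehicle arrays, all below the array medians. MITF and TFEB were not among the brighter 50% of probe sets, and with no detection call their folds are uncertain. Without vehicle replicate 2 their adjusted p was 0.0711, 0.0583 and 0.211. TFE3 also missed the threshold without vehicle replicate 1 (0.0545), and TFEB without vehicle replicate 1 or LY101-4B replicate 1 (0.197 and 0.0774). HIF1A (-0.02), the hypoxia factor that acts on SLC2A1 and SLC2A3, MYC (-0.10) and FOXO1 (0.30) did not pass. The FOXO1 difference rested on LY101-4B replicate 1, at 7.79 log2 units, against 7.24 on LY101-4B replicate 2 and 7.19 and 7.23 on the vehicle arrays, and without LY101-4B replicate 2 the list had 4 genes called higher.

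Downstream of uptake, 2 of 7 measured genes of glucose phosphorylation and lactate export rose and 1 fell. HKDC1, a hexokinase-like gene, had levels of 9.17 and 9.46 log2 units on the LY101-4B arrays, against 6.28 and 6.17 on the vehicle arrays. HK2 rose 1.43-fold (limma adjusted p 0.0123), a call lost when either vehicle array was left out (adjusted p 0.111 and 0.0767). LDHA, lactate dehydrogenase A, fell 1.60-fold. HK1 (-0.03) did not pass. Of the lactate export genes, SLC16A7 (-0.03, at 4.34 to 4.46 log2 units) and BSG (0.14) did not pass. SLC16A1 and SLC16A3 had no probe set that carries their symbol alone and were not measured. Of 7 genes of the SLC37 family and of glucose release from the endoplasmic reticulum and lysosome, SLC37A3 rose 1.45-fold (limma adjusted p 0.0135). SLC37A4, the glucose 6-phosphate translocase gene, fell 1.50-fold (limma adjusted p 0.0152). The SLC37A3 call was lost when either vehicle array was left out (0.111 and 0.0754), and SLC37A4 without LY101-4B replicate 1 or vehicle replicate 2 (0.0575 and 0.113).

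**Figure D3:**
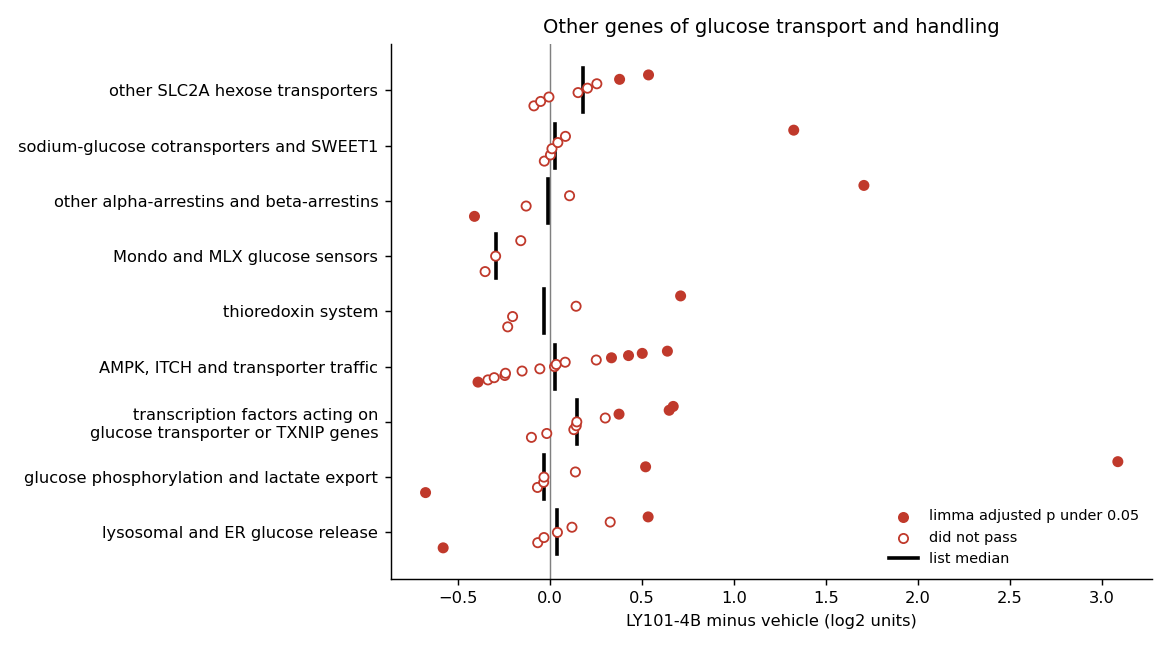
Difference LY101-4B minus vehicle (log2 units) of every measured gene of 9 lists related to glucose transport, 1 point per gene, filled where the limma adjusted p was under 0.05, with a black line at each list's median. HKDC1, ARRDC3 and SLC50A1 stand furthest to the right, and the list medians lie between -0.30 and 0.18.

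Nearness over the 4 arrays was measured as the Euclidean distance between log2 values, each gene centred on its own mean, over all 18417 genes. The genes nearest to TXNIP were NFE2L1 (distance 0.053, difference 1.53), a transcription factor gene of the proteasome recovery response, PLPP5 (0.057, difference 1.52), a lipid phosphatase gene, and ZFAND2A (0.074, difference 1.57), an arsenite-inducible zinc finger gene. The genes nearest to SLC2A3 were CREB3 (distance 0.041, difference 0.97), HAX1 (0.049, difference 0.93) and GCC1 (0.056, difference 0.97). With 4 arrays in 2 groups this mainly finds genes with a difference of the same size.

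**Figure D4:**
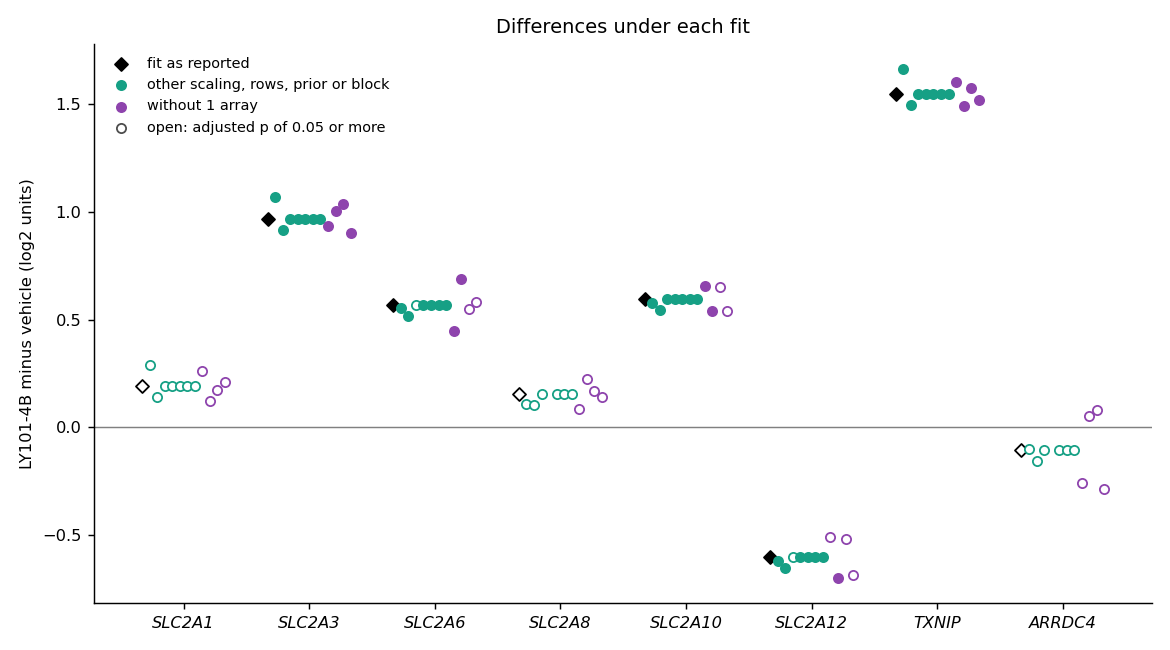
Difference LY101-4B minus vehicle (log2 units) of each gene in the fit as reported (black diamond), under another scaling, set of rows, prior or block (green) and without 1 array (purple); open symbols had an adjusted p of 0.05 or more. TXNIP and SLC2A3 are filled throughout, SLC2A6, SLC2A10 and SLC2A12 have open symbols in some fits, and ARRDC4 crosses 0.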

How the data were processed

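Expression was measured on Human Gene 1.0 ST arrays, 1 array per sample and 2 samples per group; the labels' protocols name FlashTag labelling, a kit made for small RNA, and its use for these arrays could not be checked. The authors' deposited table held log2 values per probe set, made with RMA per the submitters' processing notes; no source used here states its version, probe set definitions or filters. RMA gives arrays nearly the same distribution and compresses differences at low signal. Symbols came from the platform annotation, with identifiers looked up in a RefSeq table (GRCh38.p14, names only): of 33297 rows, 19460 had 1 symbol, 1754 several and 12083 none. The 21214 rows with a symbol were fitted with limma 3.58.1 in R 4.3.3 (treatment as the only term, eBayes without trend, 2 residual and 3.75 prior degrees of freedom), with 2-sided p-values adjusted by Benjamini and Hochberg over all of them and a threshold of 0.05. No row was removed for low signal, and detection calls and scanner files were not used here. The fit was also run on data simulated from its own model, which cannot show how well its assumptions hold on these arrays. The number of arrays limits the precision, and the design text calls the samples of a group biological replicates without saying how the cultures were separated.

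The 8 genes and the lists of related genes were chosen with earlier results of these data known, and p-values adjusted over a list alone are not given. Genes of a list are named if called (up to 4 with the largest difference, otherwise the 2 with the smallest p, or all of a list of 3), and for TXNIP and SLC2A3 the 3 genes nearest in Euclidean distance over the 4 arrays are named. Some list genes that did not pass are given as well. They were picked outside this rule, and other genes that did not pass are not named. Promoter windows are from RefSeq. Alternatives were cyclic loess, median centring, all rows, the brighter 50% of probe sets, an intensity trend, a robust prior, a replicate block and leaving out each array.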

Additional observations from a re-analysis of the deposited data

How the results depend on the processing

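The calls of TXNIP and SLC2A3 held under all 11 alternatives, with differences of 1.49 to 1.66 and 0.90 to 1.07 log2 units. SLC2A1 and SLC2A8 passed under none of the alternatives that gave them a value; SLC2A8 and ARRDC4 were not among the brighter 50% of probe sets, so 10 alternatives applied to them. ARRDC4 ranged from -0.285 to 0.08 without any one array, and was above 0 without LY101-4B replicate 2 (0.052) and without vehicle replicate 1 (0.08). With all 33297 rows tested, SLC2A6 (adjusted p 0.0662) and SLC2A12 (0.0609) missed the threshold, which left 3 of the 8 genes higher and 0 lower, and 1162 probe sets higher and 1271 lower; the alternative adjusts over more rows. It also ended the calls of SLC2A11, SLC2A14, ARRB1, PRKAB2, PRKAA2, PRKAG1, PRKAG2, ITCH, TFEB and SLC37A4, at adjusted p of 0.0552 to 0.116. Without any one array, the 8 genes gave 2 to 4 higher and 0 to 1 lower, and all probe sets 755 to 1899 higher and 811 to 2467 lower. Of the 19 named list genes that were called, 5 kept their call under every alternative that gave a value, 14 lost it under at least 1, and 0 changed sign; the cause was not tested. With the replicate number as a block, 4 of the 8 genes were higher and 1 lower, and 2024 and 2312 probe sets; it ended the calls of SLC2A11 and PRKAG1 among the named genes. Same-numbered arrays deviated together only weakly (r = 0.116), and the labels give the numbers no meaning, so they were not taken as pairs. Averaging probe sets or taking the dimmest was not run, since each of the 8 genes had 1 probe set. Signal over background limits ARRDC4, whose probe set is dim.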
